A study of Mus musculus with 2 samples.

Results

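The 39 interferon-stimulated genes described here were chosen by symbol as known targets of interferon signalling, and all 39 were found among the 26124 genes of both count matrices. Droplet-based single-cell RNA sequencing (10x Chromium, version 3.1 of the chemistry that reads transcripts from their 3′ ends) had been run on 2 suspensions of spleen cells, 1 called wild-type and 1 from the Berkeley mouse model of sickle cell disease (SCD). Red blood cells had been lysed and dendritic cells (DCs) enriched with magnetic beads that remove other cells. The study asked how hemolysis changes the phagocytes of the spleen, and the comparison here is between the SCD and the wild-type library.

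Both libraries were labelled as untreated mice of 12 to 16 weeks. The wild-type control, a littermate that does not sickle, carried the Hbatm1Paz allele of the mouse alpha globin locus in homozygous form, the Hbbtm1Tow allele of the mouse beta globin locus in heterozygous form, and the human globin transgene Tg(HBA-HBBs)41Paz in hemizygous form. The SCD mouse, labelled as sickling, was homozygous for all of these. Both groups therefore shared the Hbatm1Paz alleles and carried the human sickle transgene, and the line had a mixed genetic background. Mouse beta globin Hbb-bs, encoded at the locus where the genotypes differ in intact alleles, stood at 2293 counts of unique molecular identifiers (UMIs) per 1000000 (CPM) over all kept wild-type cells and at 20.8 CPM over the SCD cells. Reads assigned to mouse alpha globin Hba-a1 stood at 915 and 792 CPM although both labels give the Hbatm1Paz alleles.

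Interferons are cytokines that bind receptors on nearly every cell. Type I interferons act through the kinases JAK1 and TYK2, which phosphorylate STAT proteins, among them STAT2, and these join IRF9 in a complex (ISGF3) that binds the interferon-stimulated response element (ISRE) in promoters. The genes switched on this way encode sensors of foreign nucleic acids, enzymes that degrade RNA or deplete nucleotides, proteins that block viral entry, assembly and release, and the signalling proteins themselves. Low constant signalling keeps many of them detectable in unchallenged spleen, and plasmacytoid DCs (pDCs), which are specialised producers of type I interferon, hold high levels of IRF7.

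The element through which these genes are read was looked for in RefSeq promoter windows (build GRCm38.p6, 300 bases from 250 before to 50 after the start). Of the 39 members, 30 had a window. The core of the element, GAAA followed by any 2 bases and a second GAAA, searched on both strands and counted also where matches overlap, occurred in 18 of the 30 (60%) and in 1079 of 27025 genes with a window (3.99%). The longer form, which is the core with a C after it, occurred in 14 members (46.7%) and in 255 genes (0.944%). A match describes the letters in the window and is not evidence of binding. The 9 members without a window were Rtp4, Ifi27l2a, Parp14, Ifi204, Usp18, Mx1, Dhx58, Oas2 and Zbp1. Irf7, Irf9, Ifit2, Oasl1, Oasl2, Herc6, Cmpk2, Isg20, Ifi47, Ifi44, Xaf1 and Phf11d had a window without the core.

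The sites below belong to the members expressed in neutrophils whose window held the core (Isg15, Rsad2, Slfn5, Ddx58 and Oas3), to 2 genes of the IFIT family that were used to pick single cells, and to Bst2, the member with the highest level in pDCs. Each is given 5′ to 3′ on the strand that holds the core, which is in capitals.
Isg15, chr4:156200877-156200906, minus strand: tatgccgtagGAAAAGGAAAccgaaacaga
Rsad2, chr12:26456553-26456582, plus strand: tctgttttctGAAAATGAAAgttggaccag
Slfn5, chr11:82951937-82951966, plus strand: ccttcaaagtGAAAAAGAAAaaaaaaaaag
Ddx58, chr4:40239804-40239833, plus strand: ctggccatagGAAATCGAAActgcctcagg
Oas3, chr5:120777715-120777744, minus strand: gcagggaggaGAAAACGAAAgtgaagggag
Ifit1, chr19:34640794-34640823, minus strand: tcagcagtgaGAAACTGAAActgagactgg
Ifit3, chr19:34583397-34583426, minus strand: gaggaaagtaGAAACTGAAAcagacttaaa
Bst2, chr8:71537583-71537612, minus strand: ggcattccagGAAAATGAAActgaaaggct
In Isg15 this site lay 78 to 69 bases before the start, and 2 further overlapping matches followed it, so Isg15 held 3 in all. The longer form was met by the sites of Isg15, Ddx58, Ifit1, Ifit3 and Bst2, and not by those of Rsad2, Slfn5 and Oas3.

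The wild-type matrix held 10845 cells and 97880318 UMIs, and the SCD matrix 13447 cells and 189688217 UMIs. Filters on detected genes, mitochondrial and ribosomal counts left 9423 and 10635 cells, which had a median depth of 4884 and 8282 UMIs. The libraries shared 88 cell barcodes, 22 of them among the kept cells. Cells were clustered without the interferon genes and clusters were named from markers, so every class below is a rebuilt name (neutrophil-like, monocyte-like, conventional DC-like, pDC-like, red pulp macrophage-like and erythroid-like, hereafter without the ending), with DC and monocyte subtypes named in the same way. Because each group was 1 library, no difference between genotypes could be tested. The ranges given are exact 95% Poisson or binomial intervals of counting error alone, and log2 ratios are SCD over wild-type with 5 CPM added to both. One UMI stands for one captured transcript end, so levels of different genes are compared in CPM without a correction for length. A member was counted as expressed in a class when it reached 50 CPM and 20 UMIs in either library, and a 2-fold difference (1 on the log2 scale) replaces a test.

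The summed members were highest in pDCs and lowest in the SCD neutrophils. In pDCs they summed to 6229 CPM (6178 to 6280) in wild-type and 5629 CPM (5568 to 5690) in SCD cells, of which Bst2 alone made 67.8% and 63.8%. The order below them differed between the libraries. Classical monocytes held 4750 and 4148 CPM, erythroid cells 4173 and 3859 CPM, red pulp macrophages 3144 and 2224 CPM, and non-classical monocytes 2969 and 4482 CPM, which came next after pDCs in the SCD library only. The subtypes of conventional DC held 948 and 1294 CPM in cDC1, 1660 and 2270 CPM in cDC2 and 1884 and 1623 CPM in mature DCs, so that SCD cDC2 lay close to the SCD macrophages. The neutrophils held 2021 CPM (1999 to 2043) in wild-type and 813 CPM (806 to 820) in SCD cells, the lowest ratio of the sum among the classes. A second member, Ifi27l2a, made 49.7% and 58.4% of the sum in monocytes and 34.0% and 30.2% in neutrophils, but 10.7% and 3.59% in erythroid cells, so the sums of classes and subtypes are also given without both genes where the direction turns on them. B cells, with 21 wild-type cells, were not compared.

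**Figure D1:**
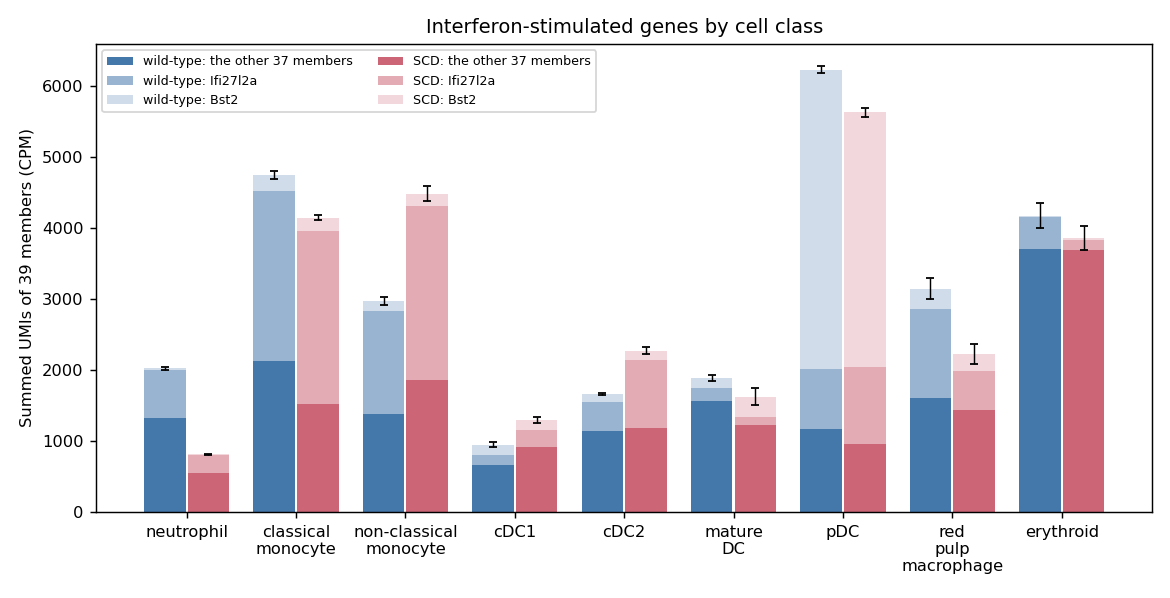
Summed UMIs of the 39 members (CPM, vertical axis) in 9 cell classes, wild-type in blue and SCD in red, each bar divided into Bst2, Ifi27l2a and the other 37 members; error bars are 95% Poisson intervals of the whole sum. The neutrophil bars stand at 2021 and 813 CPM, while pDC bars are mostly Bst2 and monocyte bars largely Ifi27l2a.

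The members did not share one cell type of highest level. Over 11 units (8 classes and subtypes and 3 ranges of neutrophils), 26 of the 39 members had their highest level in the same unit in both libraries. The interval of the leading unit lay apart from that of the next for 22 members in wild-type and 23 in SCD cells, and for 17 in both, and where it did not the leading unit is named by value alone. The transcription factors peaked together in pDCs. Irf7, which drives type I interferon genes, reached 192 CPM in wild-type and 154 CPM in SCD pDCs, Irf9 reached 109 and 105 CPM and Stat2 135 and 125 CPM. The interval of Irf9 in SCD pDCs overlapped that of the next unit, the erythroid cells at 87.5 CPM. Bst2 (tetherin), which holds budding virions on the cell surface and is a known surface marker of mouse pDCs, stood at 4220 and 3592 CPM there. Ifi47, an interferon-inducible GTPase, was also highest in pDCs of both libraries (77.2 and 58.6 CPM). Ifi44 was highest in wild-type pDCs (55.7 CPM) and in SCD red pulp macrophages (51.0 CPM).

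Late neutrophils held the highest levels of Ifit1, Oasl2, Oas2 and Rtp4 in both libraries. Oasl2, an oligoadenylate synthetase-like protein, stood there at 236 CPM in wild-type and 174 CPM in SCD cells, and Rtp4, a chaperone of receptors, at 160 and 161 CPM. Oas3, the largest of the synthetases that activate RNase L, was highest in wild-type neutrophils of the middle range (107 CPM, level with the late range) and SCD neutrophils of the late range (137 CPM). Cmpk2, a mitochondrial nucleotide kinase encoded beside Rsad2, was highest in the middle range in both (68.9 and 73.5 CPM). Oasl1 was highest in wild-type late neutrophils at 33.4 CPM and in SCD mature DCs at 24.6 CPM, both under the level set for expression.

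By value, red pulp macrophages held the highest levels of Ifit3, Ifih1, Gbp3, Gbp7, Irgm1 and Parp14 in both libraries. At least for Ifih1 and Gbp3 in both libraries, and for Ifit3 in SCD cells, the interval overlapped that of the next unit. In SCD macrophages Ifit3 (29.2 CPM) and Gbp3 (38.9 CPM) were also under 50 CPM. Ifih1 (MDA5), a sensor of long double-stranded RNA, stood at 64.0 and 77.8 CPM, and the guanylate-binding protein gene Gbp7 at 74.4 and 89.9 CPM. Ddx58 (RIG-I), the sensor of RNA with uncapped ends, was highest in wild-type macrophages (93.5 CPM) and in SCD late neutrophils (65.7 CPM). Ifit2 stood highest in wild-type macrophages (20.8 CPM) and SCD cDC1 (29.5 CPM), both low.

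Monocytes of one subtype or the other led for Ifi204, Slfn5, Oas1a, Dhx58, Ifi27l2a, Zbp1 and Xaf1 in both libraries. Ifi204, a DNA sensor, was highest in wild-type classical monocytes (214 CPM) and SCD non-classical monocytes (175 CPM), as was Slfn5 of the Schlafen family (405 and 280 CPM). Oas1a (69.0 and 65.9 CPM) showed the same change of leading subtype. Dhx58 (33.2 and 34.2 CPM) and Ifi27l2a did not show it beyond counting error, since Ifi27l2a, at 2386 CPM in wild-type classical monocytes, stood at 2457 and 2439 CPM in the SCD non-classical and classical subtypes. Zbp1, a sensor of Z-form nucleic acids, was highest in non-classical monocytes of both libraries (84.9 and 93.7 CPM), and Xaf1, an antagonist of the apoptosis inhibitor XIAP, in classical monocytes of both (80.3 and 65.3 CPM). Cxcl10, a chemokine that attracts CXCR3-bearing lymphocytes, stayed low, with its highest levels in wild-type red pulp macrophages (39.8 CPM) and SCD non-classical monocytes (39.4 CPM).

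Mature DCs, which carry Ccr7 and Fscn1, led for Usp18 (112 and 64.7 CPM), Herc6 (192 and 145 CPM), Mx1 (154 and 223 CPM) and Phf11b (272 and 250 CPM). Usp18 removes ISG15 from proteins and dampens receptor signalling, Herc6 is the mouse ligase that attaches ISG15, and Mx1 is a dynamin-like antiviral GTPase. Phf11d, a relative of Phf11b, stood at 16.5 CPM in wild-type mature DCs and at 16.5 CPM in SCD cDC2. Gbp2 was highest in wild-type mature DCs (137 CPM) and SCD red pulp macrophages (63.2 CPM). The members lay on 14 chromosomes, and 4 of them (Irf9, Igtp, Ifi47 and Parp14) overlapped another gene on the same strand, so reads of such pairs, and of families with near-identical copies (Ifit3, Oas1a, Gbp2 and Phf11b among them), may have been split or dropped in counting.

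**Figure D2:**
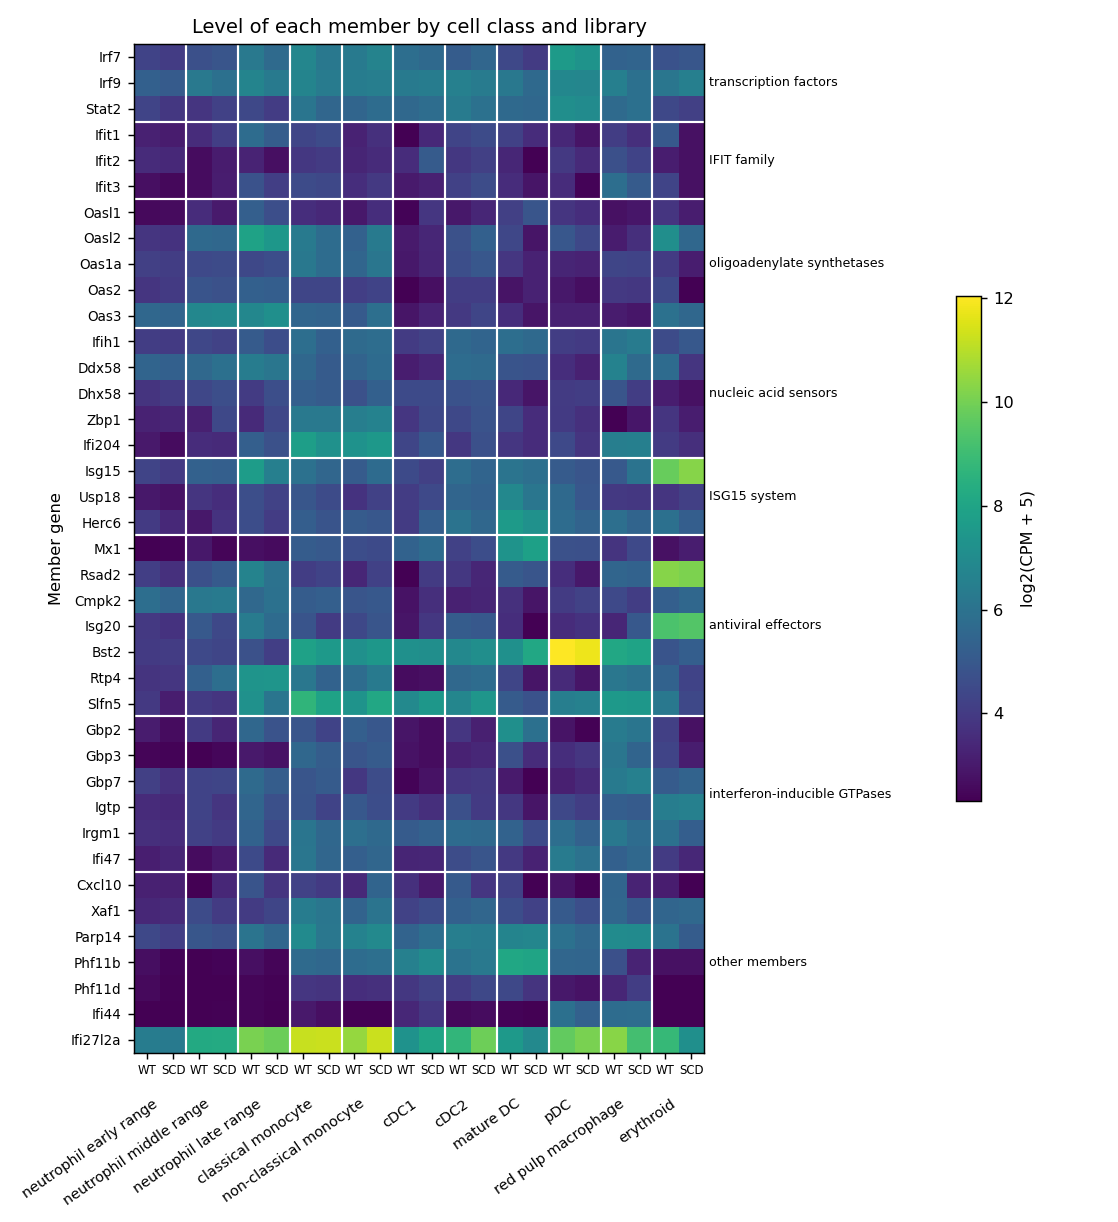
Level of each of the 39 members as log2(CPM + 5), in colour, with members as rows grouped by role and the 11 units as pairs of columns (wild-type, then SCD). Bst2 in pDCs, Ifi27l2a in monocytes, and Isg15, Rsad2 and Isg20 in erythroid cells are the brightest cells of their rows.

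In neutrophils taken as a whole, the members were lower in the SCD library. The sum had a log2 ratio of -1.31 ± 0.02 (half-width of the counting interval), of -1.24 without Bst2 and Ifi27l2a, and of -0.91 with the libraries scaled by the median ratio of expressed genes. Of the 39 members, 37 were lower and 2 higher. The 2 were Dhx58 (10.6 and 13.6 CPM), an RNA helicase that regulates RIG-I signalling, and Zbp1 (5.40 and 7.98 CPM), both low. Expressed members numbered 10, all lower in the SCD library, where 1761 of the 2486 expressed genes were lower. Of the 10, 7 were lower by 2-fold or more, against 19.5% of these genes, and none was higher by 2-fold, against 1.69%. At a minimum of 10 CPM, 18 of 31 expressed members were lower by 2-fold, and at 100 CPM 4 of 4. The share of genes was not computed at these minima. The 10 members had a median log2 ratio of -1.44, and all expressed genes one of -0.38. Under the median-ratio scaling, which set the genes at 0, 9 of the 10 were lower, 6 of them by 2-fold, and Oas3 was at 0.0013. The share of all genes past 2-fold under that scaling was not computed. Markers of other cells did not move one way in neutrophils. Lower in the SCD library were the 11 red pulp macrophage markers (704 and 212 CPM), the 14 conventional DC markers (421 and 102 CPM), the 12 pDC markers (139 and 67.3 CPM) and the 12 erythroid markers (281 and 200 CPM). The 12 monocyte markers were higher (786 and 1163 CPM), and no marker of these lists was at 0. In the late range, defined below, macrophage markers stood at 1036 and 424 CPM, conventional DC markers at 584 and 183 CPM and pDC markers at 184 and 97.0 CPM. Monocyte markers (489 and 778 CPM) and erythroid markers (203 and 259 CPM) were higher there. The immediate early gene Fos stood at 366 and 8.21 CPM over the class, and the part of these genes in the result was not tested.

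The expressed members differed among themselves. Slfn5 had the lowest ratio, at 92.2 CPM in wild-type and 14.8 CPM in SCD cells (-2.30). Isg15, the ubiquitin-like modifier, stood at 129 and 26.3 CPM (-2.09) and Oasl2 at 147 and 40.7 CPM (-1.73). These were followed by Rsad2 (viperin), which makes a chain-terminating nucleotide, at 63.6 and 18.7 CPM (-1.53), and by Ifi27l2a at 686 and 246 CPM (-1.46). The exonuclease gene Isg20 (51.1 and 16.1 CPM, -1.41) and Rtp4 (101 and 40.1 CPM, -1.23) also lay past 2-fold. Within 2-fold were Irf9 (74.5 and 40.2 CPM, -0.81), Ddx58 (63.9 and 42.0 CPM, -0.55) and Oas3 (84.3 and 63.9 CPM, -0.37). The members of the IFIT family and the interferon-inducible GTPases were all under 50 CPM in neutrophils, and their summed levels were 50.6 and 17.1 CPM for the former and 127 and 41.8 CPM for the latter.

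The neutrophils of the libraries were not of like stage. Cells were placed by the share of late genes (such as Retnlg, Mmp8 and Cxcr2) among their UMIs of early, intermediate and late neutrophil genes, and the resulting ranges are parts of a score and not cell types. The late range, with a share over 0.7, held 87.4% (86.4 to 88.4) of wild-type and 39.2% (38.1 to 40.4) of SCD neutrophils. The early range, with a share under 0.3, held 9.96% (9.08 to 10.9) and 48.9% (47.7 to 50.04). Between them lay 2.64% and 11.9%, and 2.59% and 7.44% of the cells were within 0.05 of either limit.

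The members were higher at later stages in both libraries. Their sum was 493 CPM (474 to 511) in the wild-type and 419 CPM (413 to 425) in the SCD early range, 1019 CPM (949 to 1094) and 1058 CPM (1032 to 1085) in the middle range, and 3001 CPM (2966 to 3036) and 2315 CPM (2286 to 2344) in the late range. Oasl2 was steep, at 9.25 and 8.45 CPM early, 45.1 and 42.1 CPM in the middle and 236 and 174 CPM late. Isg15 went from 14.9 and 10.9 CPM through 35.8 and 33.0 CPM to 203 and 86.8 CPM. Cmpk2 did not follow this order, with 51.6 and 39.5 CPM early, 68.9 and 73.5 CPM in the middle and 43.8 and 56.9 CPM late.

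The difference between the libraries was thus smaller within a range than over all neutrophils. It was -0.23 ± 0.06 early, 0.054 ± 0.11 in the middle, where the intervals of the levels overlapped, and -0.37 ± 0.02 late. Of 13 members expressed in the late range, 10 were lower and 3 higher in the SCD library. Isg15 (203 and 86.8 CPM, -1.18) and Slfn5 (147 and 64.5 CPM, -1.13) were lower by 2-fold, 2 members of the 13 against 10.9% of the 2515 expressed genes. None was higher by 2-fold, against 2.58% of genes. Rsad2 (97.2 and 58.8 CPM, -0.68), Isg20 (77.1 and 47.6 CPM, -0.64), Irf7 (70.6 and 46.4 CPM, -0.56) and Parp14 (61.6 and 41.8 CPM, -0.51), which encodes an ADP-ribosyltransferase, followed. Rtp4 was level (0.01), and Cmpk2 (0.34) and Oas3 (107 and 137 CPM, 0.35) were higher in the SCD library. The median over these 13 members, -0.43, equalled that over all expressed genes of the late range, -0.43.

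Scaling changed the result of the late range. The 18 neutrophil markers held 19.3% of its UMIs in the wild-type and 37.7% in the SCD library, and every other gene is counted against that total. With the libraries scaled by the median ratio of expressed genes, the late sum had a log2 ratio of 0.071, and with Mmp8, Mmp9 and Retnlg left out of the late list it was 0.036. Under that scaling 6 of the 13 expressed members were lower and 7 higher, and none passed 2-fold, with Isg15 at -0.75 and Slfn5 at -0.71. The sum of the middle range was at 0.18 with the scaling and at 0.31 with the shorter late list, and at -0.26 with stage limits of 0.2 and 0.8 and -0.46 after thinning. In 10 narrower bins of the late share, the sum was lower in the SCD library in 9, with log2 ratios from -0.48 to -0.081, and higher in the bin from 0.3 to 0.5, at 868 and 1040 CPM (0.26). It was 364 and 344 CPM at a share under 0.1, 1013 and 736 CPM from 0.1 to 0.3, 3004 and 2635 CPM from 0.9 to 0.95 and 3146 and 2606 CPM from 0.975 to 1.

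The late range was also made up of different clusters in the libraries. Cluster 0, led by Ifitm1 and Il1b, held 45.2% of its wild-type and 29.8% of its SCD cells. Cluster 2, led by Il1b, Csf1 and Dusp1, held 51.2% and 6.23%. Cluster 4, led by Cstdc4, Retnlg and Stfa2l1, held 2.62% and 50.6%. Cluster 6 held 1.02% (39 cells) and 13.3% (375 cells, with a sum of 1238 CPM). With 1 library per group, a cluster mostly of 1 library may stand for that library and not for a type of cell.

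Within clusters 0, 2 and 4 the sum was higher in the SCD library. It was 2673 CPM (2624 to 2722) and 3686 CPM (3602 to 3772) in cluster 0 (0.46 ± 0.04), 3505 CPM (3451 to 3559) and 3941 CPM (3744 to 4147) in cluster 2 (0.17 ± 0.08), and 1521 CPM (1412 to 1636) and 2147 CPM (2110 to 2184) in cluster 4 (0.50 ± 0.11). The other 6 neutrophil clusters, cluster 6 among them, lay between 194 and 1222 CPM, with log2 ratios from -0.19 to 0.11, 5 of them negative, and the positive one (cluster 22) at -0.025 without Bst2 and Ifi27l2a. The immediate early genes moved with the libraries inside a cluster too, since Dusp1 stood at 1357 and 348 CPM and Fos at 627 and 91.3 CPM in cluster 0, and their part in the result was not tested.

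In cluster 0, 13 of 14 expressed members were higher in the SCD library, with a median of 0.29 against -0.07 over all expressed genes, and none passed 2-fold in either direction (1.35% of genes higher and 0.791% lower). Rtp4 stood at 145 and 261 CPM (0.83), Oas3 at 95.1 and 163 CPM (0.74), Oasl2 at 228 and 352 CPM (0.62) and Ifi27l2a at 942 and 1426 CPM (0.60). Ifit1, which binds viral RNA that lacks cap methylation, stood at 47.8 and 70.9 CPM (0.52). Isg15 (152 and 184 CPM, 0.27) and Slfn5 (142 and 164 CPM, 0.19), the lowest members of the late range, were thus on the higher side here, and Irf9 was the 1 lower member (99.8 and 92.9 CPM, -0.10).

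In cluster 4, 9 of 9 expressed members were higher in the SCD library, Oasl2 by 2-fold (65.3 and 145 CPM, 1.10), where 1.34% of genes were higher and 0.575% lower by as much. Cluster 2 was mixed, with 10 of 18 expressed members higher. Its 1 member past 2-fold was Cxcl10, at 33.0 and 190 CPM (2.36, 72 SCD UMIs), against 2.75% of genes higher and 1.21% lower. Isg15 was lower there (268 and 190 CPM, -0.48), as was Rsad2 (118 and 66.1 CPM), while Oasl2 (270 and 317 CPM) and Rtp4 (186 and 235 CPM) were higher.

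**Figure D3:**
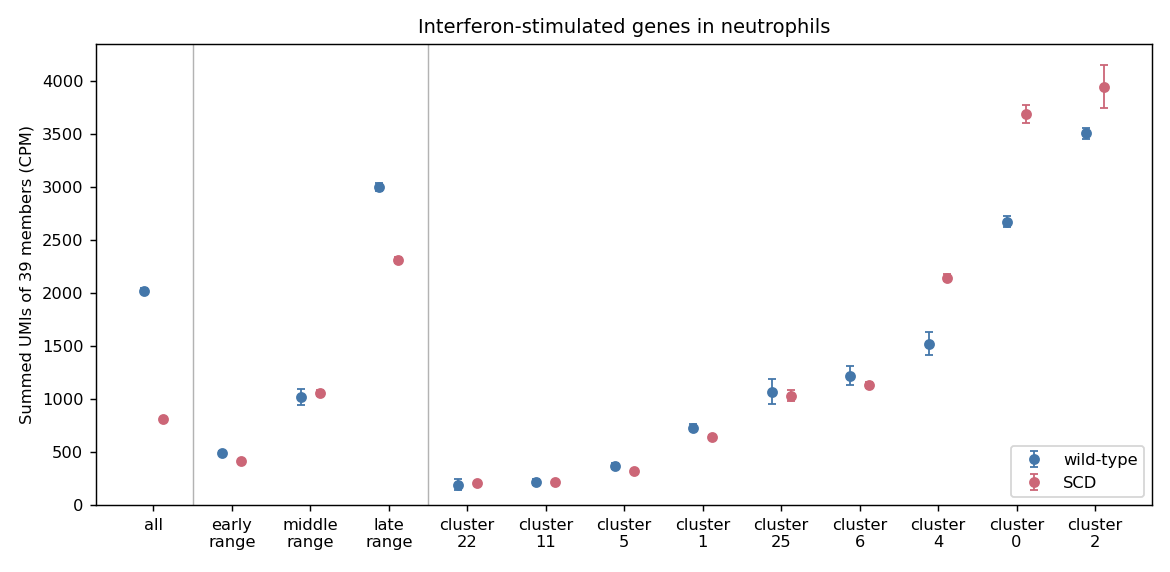
Summed UMIs of the 39 members (CPM, vertical axis) in all neutrophils, in the 3 ranges of the late share and in the 9 neutrophil clusters, wild-type in blue and SCD in red, with 95% Poisson intervals. The SCD point is lower over all neutrophils and in the late range and higher in clusters 0, 2 and 4.

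The pooled ratio was recomputed with the wild-type shares of stages given to both libraries. With the shares of the 3 ranges, the sum was 2699 and 2093 CPM (-0.37, and 0.068 with the median-ratio scaling), 32 of the 39 members were lower and 7 higher, and 2 of the 10 expressed members were lower by 2-fold (7.2% of genes) and none higher (1.33%). Of these 10 members 8 were lower and 2 higher, beside 1936 and 550 of the 2486 expressed genes. With the shares of the 9 clusters, chosen as weights after seeing the data, the sum was 2763 and 3368 CPM (0.29), 25 members were higher and 14 lower, and none of the 10 passed 2-fold (0.885% of genes higher and 0.644% lower). Here 6 of the 10 were higher and 4 lower, beside 1178 and 1308 of the expressed genes. The medians over the 10 expressed members were -1.44 pooled, -0.38 at equal ranges and 0.13 at equal clusters, beside -0.38, -0.33 and -0.01 over 2486 genes.

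The members parted at equal cluster shares. Isg15 (-0.18), Rsad2 (-0.36), Isg20 (-0.26) and Irf9 (-0.19) kept a negative ratio, while Rtp4 (0.56), Ifi27l2a (0.43), Oasl2 (0.41), Oas3 (0.24) and Ddx58 (0.21) had a positive one. Slfn5, with the lowest pooled ratio of the 10, stood at 0.055 with the wild-type and -0.026 with the SCD cluster shares. The sum of the list in SCD neutrophils was thus lower over the whole class, lower at equal range shares as CPM and not with the median-ratio scaling, and higher at equal cluster shares.

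**Figure D4:**
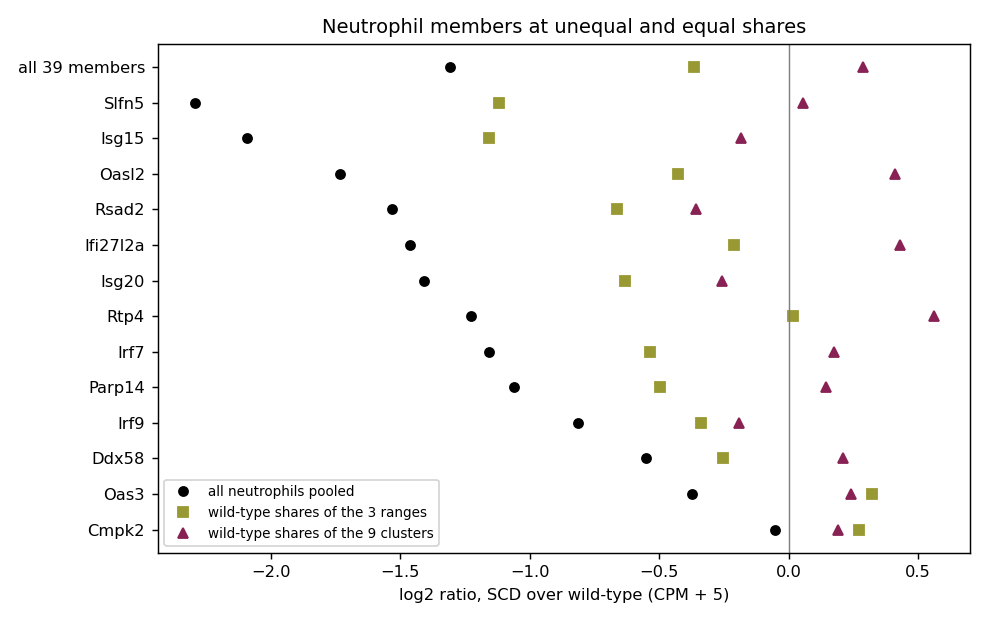
Log2 ratio (SCD over wild-type, CPM + 5, horizontal axis) of the sum and of 13 members in neutrophils pooled (circles), at wild-type shares of the 3 ranges (squares) and at wild-type shares of the 9 clusters (triangles); the vertical line marks no difference. Circles all lie left of the line, and the triangle of the sum lies at 0.29.

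Single late neutrophils varied widely in both libraries. After each cell was thinned to 1000 UMIs (44 wild-type and 7 SCD cells were shallower and left out), 5 or more member UMIs were found in 20.2% (18.9 to 21.5) of wild-type and 19.0% (17.5 to 20.5) of SCD late neutrophils. Unthinned, these shares were 41.5% and 53.0%. At the other end, 30.6% and 30.2% of the cells held no member UMI, and the 10% of cells with most held 50.1% and 43.6% of all member UMIs. With all 39 members counted, the libraries separated only in the tail, where 10 or more UMIs were found in 7.51% (6.69 to 8.40) and 5.08% (4.30 to 5.95) of cells, and 20 or more in 1.99% (1.57 to 2.49) and 0.958% (0.633 to 1.39). The largest totals in 1 cell were 133 and 40 UMIs. Over all neutrophils, 17.4% (16.3 to 18.6) and 7.94% (7.32 to 8.58) held 5 or more, and 42.1% and 46.7% did unthinned. In the late range without Bst2 and Ifi27l2a, 5 or more UMIs were found in 11.2% (10.2 to 12.2) and 8.56% (7.55 to 9.65) of thinned cells, with intervals apart. The 1000 UMIs of a cell include those of the 18 neutrophil markers, which held 19.3% of late-range UMIs in the wild-type and 37.7% in the SCD library.

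**Figure D5:**
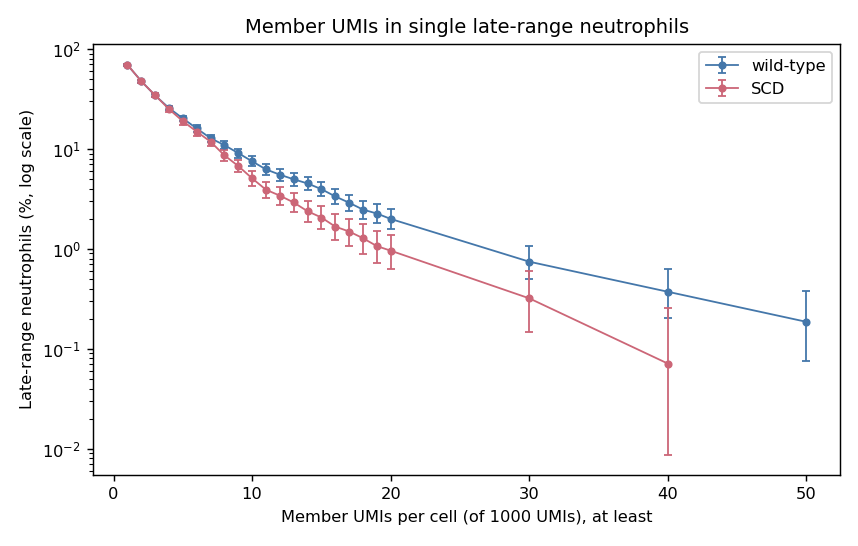
Share of late-range neutrophils (%, log scale) that held at least the number of member UMIs on the horizontal axis after thinning each cell to 1000 UMIs, with 95% binomial intervals. The intervals overlap up to 7 UMIs and are apart from 8 to 20 UMIs, and no SCD cell reached 50 UMIs.

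A smaller set of cells was picked by the IFIT genes, which are themselves members. Cells with 2 or more UMIs of Ifit1, Ifit2 and Ifit3 among 1000, a rule set after seeing the data, were 52 of 3766 wild-type (1.38%, 1.03 to 1.81) and 26 of 2817 SCD late neutrophils (0.923%, 0.604 to 1.35). Over the other 34 members, with Bst2 and Ifi27l2a also left out, these cells held 18365 CPM against 1691 CPM in the remaining wild-type cells, and 10500 against 1469 CPM in the SCD library. Of the 34, 31 were higher in the IFIT cells of the wild-type and 29 in those of the SCD library, with separate intervals for 28 and 24 and none lower with a separate interval. Cxcl10 was concentrated further, since 43 wild-type late neutrophils held its 224 UMIs and 1 cell held 77 of them, and 20 SCD cells held 95 UMIs, 28 of them in 1 cell. After thinning, the IFIT cells of the wild-type library held 45 Cxcl10 UMIs against 29 in the remaining late neutrophils, while those of the SCD library held 0 against 42. Cells found by the same rule were 4 of 1001 wild-type (0.109 to 1.02%) and 0.760% (0.365 to 1.39) of SCD monocytes, and 0.303% (0.131 to 0.597) and 1.11% (0.482 to 2.18) of conventional DCs. They numbered 4 and 10 monocytes and 8 and 8 DCs, and the SCD intervals overlapped that of the SCD late neutrophils, while the wild-type intervals lay below that of the wild-type late neutrophils.

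Monocytes as a class had similar sums, at 3968 and 4175 CPM (0.073 ± 0.018), but the sign turned to -0.22 without Bst2 and Ifi27l2a. Of 15 expressed members, 2 were higher and 13 lower, none past 2-fold (3.18% of genes higher and 5.87% lower). Their median was -0.27, and it was 0.036 with no upper limit on detected genes and 0.032 after thinning. The lowest ratios were those of Parp14 (110 and 71.8 CPM, -0.58), Rtp4 (58.9 and 39.5 CPM, -0.52) and Irgm1 (58.8 and 42.3 CPM, -0.43), an immunity-related GTPase of autophagy. The highest were those of Ifi27l2a (1971 and 2437 CPM, 0.31), Xaf1 (61.4 and 65.1 CPM, 0.08) and Bst2 (194 and 187 CPM, -0.05).

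The monocyte subtypes, taken whole, went opposite ways. In classical monocytes the sum was 4750 CPM (4692 to 4809) and 4148 CPM (4117 to 4178), a log2 ratio of -0.20 ± 0.02, and 16 of 17 expressed members were lower in the SCD library. Rtp4 (66.9 and 36.3 CPM, -0.80), Parp14 (119 and 67.8 CPM, -0.77) and Slfn5 (405 and 238 CPM, -0.75) had the lowest ratios, and no member passed 2-fold (2.42% of genes lower and 2.33% higher). In non-classical monocytes the sum was 2969 CPM (2917 to 3022) and 4482 CPM (4377 to 4588), a ratio of 0.59 ± 0.04, and 15 of 16 expressed members were higher. Oasl2 (35.7 and 73.6 CPM, 0.95), Slfn5 (153 and 280 CPM, 0.85), Oas3 (29.0 and 53.0 CPM, 0.77) and Ifi27l2a (1445 and 2457 CPM, 0.76) led, again with none past 2-fold (1.19% of genes higher and 2.58% lower). With the median-ratio scaling 1 member was higher by 2-fold, and the share of genes was not computed there.

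The cells behind these subtypes were not the same. Of 462 wild-type classical monocytes, 393 lay in a sub-cluster led by Fos, Rfx2 and Dusp1 that held 3 SCD cells, and 390 of the 1139 SCD cells lay in one led by Saa3 that held 1 wild-type cell. Only 2 classical sub-clusters held 20 or more cells of each library. One, led by Hba-a1 and Cd209a (23 and 183 cells), stood at 4222 CPM (4003 to 4451) and 4537 CPM (4456 to 4618), a ratio of 0.10, and of 0.41 without the top pair, and the other, led by histone genes (20 and 123 cells), at 2905 and 2275 CPM, a ratio of -0.35. The non-classical cells fell into 3 sub-clusters in different proportions. The first, led by Cd36 and Fabp4, held 345 of 542 wild-type and 48 of 166 SCD cells, and had the lowest sum of the 3, at 1795 CPM (1738 to 1853) and 1699 CPM (1553 to 1855), a ratio of -0.079. The second, led by Lyz1 and Spic, held 99 and 82 cells at 4831 CPM (4695 to 4970) and 5181 CPM (5030 to 5336), a ratio of 0.10. The last, led by the antigen presentation genes H2-Aa, H2-Eb1, H2-Ab1 and Cd74 and with no non-classical marker among its 10 leading genes, held 98 and 36 cells at 3593 CPM (3479 to 3709) and 5026 CPM (4809 to 5251), a ratio of 0.48. The ratio of 0.59 over the subtype was therefore larger than that within any of these sub-clusters, which were examined after the data had been seen. These last 2 also lay close to the classical subtype, with marker scores of 0.296 and 0.334 for non-classical against 0.206 and 0.197 for classical monocytes. Neutrophil markers stood at 1709 and 5331 CPM in classical and 987 and 4464 CPM in non-classical monocytes, none of the 18 at 0. In classical monocytes conventional DC markers stood at 755 and 336 CPM (0 and 1 of the 14 at 0) and red pulp macrophage markers at 597 and 222 CPM, none of the 11 at 0. Fos stood at 222 and 21.3 CPM in classical and at 89.2 and 9.04 CPM in non-classical monocytes, and the heat shock gene Hspa1b at 122 and 4.52 CPM in the latter, and the part of these genes in the results was not tested. After thinning, 5 or more member UMIs were found in 45.6% (40.9 to 50.2) and 42.0% (39.1 to 44.9) of classical monocytes, with 1 and 3 shallower cells left out (98.7% and 98.9% unthinned). In non-classical monocytes they were found in 14.3% (11.5 to 17.6) and 36.7% (29.4 to 44.6), with 4 and 0 cells left out (86.7% and 92.8% unthinned). Without Bst2 and Ifi27l2a the thinned shares were 13.4% (10.5 to 16.9) and 7.22% (5.78 to 8.88) in classical monocytes, with intervals apart. In non-classical monocytes they were 3.53% (2.14 to 5.46) and 6.63% (3.35 to 11.5), with overlapping intervals.

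In conventional DCs the sum was 1597 and 1649 CPM (0.046 ± 0.029), and -0.18 without Bst2 and Ifi27l2a. Expressed members numbered 8, with 4 higher and 4 lower and none past 2-fold (2.12% of genes higher and 4.28% lower). Herc6 (72.7 and 40.7 CPM, -0.77), Stat2 (67.7 and 49.4 CPM, -0.42) and Parp14 (80.3 and 63.0 CPM, -0.33) were lowest, and Slfn5 (93.5 and 147 CPM, 0.63), Ifi27l2a (347 and 518 CPM, 0.57) and Bst2 (119 and 132 CPM, 0.14) highest. Neutrophil markers in this class stood at 9705 CPM in wild-type and 37566 CPM in SCD cells, none of the 18 at 0, and their part in the result was not tested.

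The subtypes of conventional DC differed in what made up their sums. In cDC1, which cross-present antigen, the ratio was 0.45 ± 0.07 and 0.47 without the top pair, with 6 of 8 expressed members higher, none past 2-fold (1.43% of genes higher and 0.399% lower). Neutrophil markers stood at 599 and 3861 CPM in cDC1 (4 and 0 of the 18 at 0). Hba-a1 stood at 14.1 and 126 CPM and Fos at 171 and 51.1 CPM there, and the part of these genes in the result was not tested. In cDC2 the ratio was also 0.45 ± 0.04 but 0.064 without the top pair, since Ifi27l2a, at 416 and 951 CPM (1.18), was the 1 member of 9 past 2-fold (1.17% of genes higher and 0.703% lower). Of the 373 SCD cDC2, 177 lay in a sub-cluster led by Ifitm1 that held 7 of the 1912 wild-type cells. The subtype also took in a sub-cluster led by neutrophil genes such as Cxcr2 and Csf3r (132 and 10 cells) and one led by monocyte genes such as Lyz1 and Csf1r (140 and 29 cells), neither with a cDC2 marker among its 10 leading genes. A sub-cluster led by Clec10a beside the monocyte genes F13a1, Fn1 and Ccr2 held 98 wild-type and 96 SCD cells at 3240 and 3543 CPM (0.13), and its cells supplied 4339 of 27085 member UMIs in wild-type cDC2 and 3868 of 7277 in SCD cDC2. Of the 4 cDC2 sub-clusters with 20 or more cells of each library, 3 had ratios from 0.13 to 0.35 and the one led by Elane and Mpo, genes of granulocyte precursors, and with no cDC2 marker among its 10 leading genes (172 and 28 cells) had -0.62. Without the top pair, the 4 ratios ran from -0.49 to 0.034. In cDC1 the sub-cluster led by Cd207 and Xcr1 (104 and 143 cells) had a ratio of 0.74 and of 0.87 without the top pair, and the other (61 and 77 cells) one of 0.10 and of -0.092. In mature DCs, with 71 SCD cells, the ratio was -0.21 ± 0.11. In one sub-cluster lay 323 of 539 mature DCs from the wild-type but only 19 from the SCD library, and the one with 20 or more from each (115 and 37) had a ratio of -0.37. Erythroid markers stood at 1446 and 246 CPM in mature DCs (0 and 3 of the 12 at 0), and neutrophil markers at 6671 and 15860 CPM (1 and 1 of the 18 at 0). The part of these markers in the result was not tested. In this subtype 1 of 11 expressed members, Gbp2 (137 and 55.8 CPM, -1.22), was lower by 2-fold (3.84% of genes lower and 3.08% higher). Usp18 (112 and 64.7 CPM, -0.74) was also low there, while Bst2 (144 and 279 CPM, 0.93) and Mx1 (154 and 223 CPM, 0.53) were on the higher side.

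In pDCs the sum had a ratio of -0.15 ± 0.02, of -0.29 without Bst2 and Ifi27l2a, and of 0.0043 with no upper limit on detected genes. The pDCs lay in 3 clusters in different proportions. Cluster 7, led by Siglech, held 649 wild-type and 340 SCD cells at 6670 CPM (6610 to 6730) and 6621 CPM (6529 to 6715), a ratio of -0.011. Cluster 17, led by Ly6d and Runx2, held 66 and 241 cells at 3531 CPM (3402 to 3664) and 4567 CPM (4484 to 4650), a ratio of 0.37, and of -0.12 without the top pair. Cluster 26 held 99 and 20 cells at 5489 and 4826 CPM, a ratio of -0.19. Conventional DC markers summed to 14210 and 7513 CPM in pDCs, none of the 14 at 0, and their part in the result was not tested. Of 10 expressed members 8 were lower, none by 2-fold (0.562% of genes lower and 1.52% higher). The lowest were Ifi44 (55.7 and 35.3 CPM, -0.59), Irgm1 (52.7 and 35.8 CPM, -0.50) and Ifi47 (77.2 and 58.6 CPM, -0.37). The highest were Ifi27l2a (837 and 1077 CPM, 0.36), Slfn5 (84.1 and 92.9 CPM, 0.14) and Irf9 (109 and 105 CPM, -0.06). The median over members was -0.27 and that over all expressed genes 0.01.

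Red pulp macrophages, which clear aged red cells, were few and shallow, with 275 and 154 cells and medians of 1308 and 1518 UMIs. Their sum had a ratio of -0.50 ± 0.11, of -0.16 without Bst2 and Ifi27l2a, of -0.28 with a minimum of 1000 genes per cell and of -0.79 as a mean over cells. The 14 conventional DC markers summed to 8858 CPM in wild-type and 1106 CPM in SCD macrophages (2 and 7 of them at 0), and the 18 neutrophil markers to 2098 and 8315 CPM (1 and 0 at 0), and their part in the result was not tested. Of 18 expressed members, Ifi27l2a (1262 and 552 CPM, -1.19) was lower and Isg15 (27.7 and 60.8 CPM, 1.01) higher by 2-fold, against 5.87% of genes lower and 3.17% higher. The Isg15 value rested on few cells, since 16 of its 25 SCD UMIs came from 1 cell. No member was higher by 2-fold without called doublets, at Leiden resolution 2, with cells named by their own markers, with no upper limit on genes, as a mean over cells, after thinning, with a pseudocount of 20 CPM or at a minimum of 100 CPM. Ddx58 (93.5 and 46.2 CPM, -0.94) and Ifit3 (51.9 and 29.2 CPM, -0.74) were lowest after Ifi27l2a, and Ifih1 (64.0 and 77.8 CPM, 0.26) and Gbp7 (74.4 and 89.9 CPM, 0.26) highest after Isg15. After thinning, which left out 79 and 20 shallower cells, 29.1% (22.8 to 36.0) of wild-type and 5.97% (2.61 to 11.4) of SCD macrophages held 5 or more member UMIs (44.7% and 31.2% unthinned).

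The erythroid cells stood apart by 3 members. Isg15 was at 873 and 1236 CPM, Rsad2 at 1221 and 1125 CPM and Isg20 at 618 and 685 CPM. Each of the 3 had its highest level in this class in both libraries. The interferon-inducible GTPase Igtp also had its highest level there (81.2 and 89.3 CPM). The 12 erythroid markers held 41.59% of the UMIs of the class in wild-type and 12.96% in SCD cells. Every other gene is counted against that total, so the CPM of the libraries are not on like totals. With the median-ratio scaling, the log2 ratios were -0.46 for Isg15, -1.07 for Rsad2 and -0.80 for Isg20. At 1000 UMIs per cell, Rsad2 was found in 46.2% (34.8 to 57.8) and 62.2% (50.1 to 73.2) of erythroid cells, against 0.369% and 0.167% of pDCs. Isg20 was found in 33.3% and 51.4% of erythroid cells, against 0.491% and 1% of pDCs, and Isg15 in 33.3% and 35.1%, against 2.46% and 3.17%. Late neutrophils were the unit with the next highest level of each of these genes. In neutrophils as a class Rsad2 was found in 5.59% and 2.71% of cells, Isg20 in 5.86% and 2.44% and Isg15 in 10.7% and 3.79%. Single cells weighed on Isg15, since 1 cell held 89 of its 473 wild-type UMIs and 1 held 196 of its 678 SCD UMIs. Other members did not share this level, as the IFIT genes, Stat2 and Bst2 were under 50 CPM in the class.

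Of 12 expressed members in erythroid cells, 4 were higher and 8 lower. Slfn5 (70.1 and 16.4 CPM, -1.81), Ifi27l2a (448 and 139 CPM, -1.66) and Oasl2 (135 and 41.9 CPM, -1.57) were lower by 2-fold, against 13.3% of genes, and none was higher, against 46.8%. Markers of other cells moved with them, from 27020 to 11050 CPM for the 18 neutrophil markers, 5246 to 120 CPM for the 14 conventional DC markers (1 and 6 at 0) and 1112 to 554 CPM for the 12 monocyte markers, and their part in the result was not tested. The shares of genes past 2-fold in CPM rest on totals with the unlike erythroid marker shares given above. With 79 and 74 cells and a median of 0.91 over all expressed genes, this class had the largest shift of scale of those compared. With the median-ratio scaling all 12 members were lower, 8 by 2-fold. The share of all genes past 2-fold under that scaling was not computed.

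The rest of the pathway was read from a list of 101 genes, of which 100 were found and 29 were expressed in neutrophils. Of these 29, 3 were higher and 26 lower in the SCD library, 10 of the latter by 2-fold and none of the former, against 19.5% of all expressed genes lower and 1.69% higher. The median was -0.85 over the list and -0.38 over all expressed genes. With the median-ratio scaling 24 were lower, 5 by 2-fold, and the share of all genes past 2-fold was not computed there. The receptor genes were all lower, with Ifnar1 at 71.6 and 23.3 CPM (-1.44), Ifnar2 at 68.2 and 44.0 CPM (-0.58), Ifngr1 at 125 and 60.7 CPM (-0.99), Ifngr2 at 141 and 76.4 CPM (-0.85) and Il10rb at 98.7 and 40.9 CPM (-1.17). Among the kinases, Jak1 stood at 292 and 174 CPM (-0.73) and Jak2 at 60.2 and 28.1 CPM (-0.98). The regulatory factor genes Irf1 (151 and 37.8 CPM, -1.87) and Irf2 (208 and 111 CPM, -0.88) and the adaptor gene Myd88 (138 and 48.4 CPM, -1.42) were lower too.

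Inhibitors of the pathway followed, with 4 of 5 lower. Socs3, which blocks JAK kinases, had the lowest ratio of the list at 97.6 and 7.23 CPM (-3.07), the phosphatase genes Ptpn1 (194 and 110 CPM, -0.79) and Ptpn6 (497 and 308 CPM, -0.68) and the gene Pias1 (58.8 and 32.8 CPM, -0.76) were nearer to level, and Irf2bp2 was higher (172 and 184 CPM, 0.10). Of 13 further interferon-stimulated genes 11 were lower. Ly6e (314 and 74.0 CPM, -2.02), Epsti1 (56.1 and 20.4 CPM, -1.27), Trim25 (82.2 and 36.6 CPM, -1.07), Slfn1 (549 and 266 CPM, -1.03) and Slfn2 (808 and 397 CPM, -1.02) lay past 2-fold. Tap1 (54.9 and 32.1 CPM), Psmb8 (130 and 91.8 CPM), Psmb9 (127 and 92.2 CPM), Ddx60 (69.6 and 49.3 CPM), Slfn4 (204 and 178 CPM) and Sp100 (170 and 165 CPM) were lower within 2-fold, and Samd9l (203 and 223 CPM, 0.13) and Sp110 (49.2 and 62.2 CPM, 0.31) were higher.

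As with the members, the pathway list came closer to level within a set of like neutrophils. In the late range 28 of 31 expressed genes were lower, with a median of -0.48 beside -0.43 over all expressed genes (17 of 31 with the median-ratio scaling). In cluster 0, 19 of 30 were higher, with a median of 0.03 beside -0.07 over all expressed genes. There Ifnar1 stood at 107 and 93.4 CPM (-0.19) and Socs3 at 177 and 118 CPM (-0.57).

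The interferons themselves were nearly absent from the counts. Over all kept cells, 10 interferon genes held 9 UMIs in the wild-type and 3 in the SCD library, 8 and 2 of them from Ifnk, 1 wild-type UMI from Ifnb1 and 1 SCD UMI from Ifng, and 7 of the 10 were at 0 in both libraries. These counts are too few for a comparison of the libraries.

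Transcripts free in the suspension can add UMIs to any cell. In neutrophils there were 3.49 and 6.51 Bst2 UMIs per UMI of the pDC gene Siglech, and in pDCs 1.28 and 1.34. In monocytes that ratio was 87.5 and 55.5 and in conventional DCs 16.7 and 20.5. Isg15 in neutrophils stood at 3.19 and 0.274 UMIs per Hba-a1 UMI, where erythroid cells held 0.00928 and 0.0110. In red pulp macrophages the ratio was nearer to that of erythroid cells, at 0.0238 and 0.0374 for Isg15 and 0.0342 and 0.0224 for Rsad2, where erythroid cells held 0.0130 and 0.0101 for Rsad2. The part of free RNA in the differences between libraries was not tested.

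Genes that are no member were ranked by the correlation of their log2(CPM + 5) with the summed members over 12 sums (6 classes in each of the libraries), among 6046 genes with at least 50 CPM in 1 of them, as a description. The highest were Serinc3 (Pearson's r 0.91), Nucb1 (0.88), Retreg3 (0.85), Selenot (0.83), Atp2b4 (0.80) and Ybx3 (0.80). Against the sum without Bst2 and Ifi27l2a they were Ccdc71l (0.95), Tmem33 (0.93), Mettl7a1 (0.93), Zc3hav1 (0.92), Fech (0.90) and Ppm1d (0.90). The 12 sums share their libraries and their depths.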

How the data were processed

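Spleen cells of 1 wild-type and 1 SCD library were compared, grouped by GEO's labels. The files deposited by the authors hold unscaled UMI counts of each gene in each cell, made with Cell Ranger 4.0.0 on GRCm38.p6 per the submitters' processing notes, which also name Seurat 3.2.3, Scanpy 1.6.0 and R 4.4. No normalization had been applied. The steps below were computed from these counts. The members and lists were chosen with earlier results of these data known.

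Following the study's methods, a cell was kept if it had from 500 to 5000 detected genes and less than 15% of its counts in mitochondrial and 30% in ribosomal genes. Genes seen in at least 20 kept cells (14562), without 139 interferon genes, entered clustering: scran size factors (scran 1.30.0, R 4.3.3), 2000 variable genes, 30 principal components, 15 neighbours and Leiden resolution 1 (leidenalg 0.10.2 and igraph 0.11.9 through scanpy 1.11.5 in Python 3.11.15), which gave 27 clusters. No batch correction was made. Clusters were named from at least 3 detected markers of a class, with a score 0.05 above that of the next. Scrublet at a score of 0.2149 called 357 (3.79%) and 279 (2.62%) cells as doublets, which were kept. Its automatic threshold worked in 1 library and was used for both.

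UMIs were summed per library and class and given as CPM. Each group was 1 sample, so no test, p-value or spread between animals was computed, and exact 95% Poisson or Clopper-Pearson intervals cover counting error only. Where a gene had no UMI, its limit was 3 counts. Thinning drew 1000 UMIs per cell without replacement from a fixed seed. Members expressed in neutrophils were named by value. In pDCs, monocytes, conventional DCs and red pulp macrophages the 3 highest and 3 lowest members were named, besides each member in its leading class and the pathway genes expressed in neutrophils, of which 1 is not reported here by name. The scripts were tested on simulated data. Alternatives covered the pseudocount, minimum level, scaling, doublets, gene limits per cell, weights, depth, clustering, stage limits and motif. Figures were drawn with matplotlib 3.10.9. Intervals used scipy 1.17.1, arrays and tables numpy 2.4.6 with pandas 2.3.3, and components scikit-learn 1.9.0.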

Additional observations from a re-analysis of the deposited data

Results flagged for a closer look

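The summed log2 ratio of the members was -0.20 in classical and 0.59 in non-classical monocytes, with counting intervals on opposite sides of 0. Within the 3 sub-clusters of non-classical monocytes it was -0.079, 0.10 and 0.48, and within the 2 classical sub-clusters with 20 or more cells of each library 0.10 and -0.35. It was 0.45 in cDC2 and -0.21 in mature DCs, again on opposite sides of 0, although the cDC2 value was 0.064 without Bst2 and Ifi27l2a and -0.62 in 1 of 4 cDC2 sub-clusters. With 1 library per group, neither difference between subtypes was tested. Cells with over 5000 detected genes, which the filters had removed and which entered a single alternative setting only (295 wild-type and 1220 SCD cells), also held the members, at 733 CPM in wild-type and 776 CPM in SCD cells (427 and 425 CPM without Bst2 and Ifi27l2a). Whether these are doublets or large precursors was not tested.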

How the results depend on the processing

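No paired analysis was possible because a single library stood for each genotype, and for the same reason no replicate could be left out. Sums, medians and counts past 2-fold that moved by more than their counting interval are given by setting, as log2 ratios unless named otherwise. The share of all genes past 2-fold was not computed at the settings for which such counts are given. A pseudocount of 1 CPM gave a neutrophil median of -1.54, and 20 CPM gave -1.06 and 1 macrophage member past 2-fold. Leiden resolution 2 gave a pDC sum of -0.18. Without called doublets the monocyte sum was 0.055, the pDC sum -0.17 and the macrophage count 1. A minimum of 1000 genes gave -1.17 for the neutrophil median, -1.14 for its sum, -0.44 at equal ranges, -0.46 late, -0.28 in macrophages, 0.088 in cluster 2 and 0.61 in cluster 4. Stage limits of 0.2 and 0.8 gave -0.31 at equal ranges, -0.31 late and -0.26 in the middle, and limits of 0.4 and 0.6 gave -0.44 and -0.45 for the first 2. Without Mmp8, Mmp9 and Retnlg in the late list, the early range was at -0.15, the middle at 0.31, the late range at 0.036 and equal ranges at 0.037. Cells named by their own markers gave -1.31 for the neutrophil median, -1.19 for its sum, 0.092 in conventional DCs, 0.14 in monocytes and -0.67 in macrophages.

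The mean over cells gave medians of -0.086 in monocytes and -0.96 in neutrophils, 5 macrophage members past 2-fold, and sums of -0.98 in neutrophils, -0.22 at equal ranges, -0.31 early, -0.24 in the middle, -0.21 late, 0.28 in monocytes, -0.11 in classical monocytes, -0.084 in pDCs, 0.38 in cDC2 and -0.79 in macrophages. Scaling by the median ratio of genes gave a neutrophil median of -1.08 and sums of -0.91 in neutrophils, 0.068 at equal ranges, -0.17 early, 0.18 in the middle, 0.071 late, 0.53 in cluster 0, 0.16 in monocytes, -0.14 in classical and 0.74 in non-classical monocytes, 0.17 in conventional DCs and 0.53 in cDC2. A minimum of 10 CPM gave medians of -0.11 in monocytes and -1.09 in neutrophils and counts of 2 in conventional DCs and 18 in neutrophils. A minimum of 100 CPM gave medians of 0.36 in conventional DCs, -1.60 in neutrophils and -0.11 in pDCs, and counts of 4 in neutrophils and 1 in macrophages. No upper limit on genes gave medians of 0.036 in monocytes and -0.068 in pDCs, sums of 0.36 and 0.0043 in these classes, and a macrophage count of 0. Cells thinned to 1000 UMIs gave medians of 0.032 in monocytes, -1.01 in neutrophils and -0.16 in pDCs, counts of 2 in conventional DCs and 1 in macrophages, and sums of 0.085 in conventional DCs, 0.31 in cDC1, 0.37 in cDC2, 0.27 in monocytes, -0.13 in classical and 0.71 in non-classical monocytes, -0.98 in neutrophils, -0.22 at equal ranges, -0.32 early, -0.46 in the middle, -0.22 late, -0.061 in pDCs and -0.69 in macrophages.

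Choices made after seeing the data were these. Without Bst2 and Ifi27l2a the conventional DC median was -0.24, and the sums were -0.18 in conventional DCs, 0.064 in cDC2, -0.34 in mature DCs, -0.22 in monocytes, -0.49 in classical and 0.42 in non-classical monocytes, -1.24 in neutrophils, -0.46 at equal ranges, -0.47 late, 0.39 in cluster 0, 0.085 in cluster 2, -0.29 in pDCs and -0.16 in macrophages. Cluster shares as weights gave 0.29 (wild-type shares) and 0.24 (SCD shares). The share of neutrophils with 5 or more member UMIs, 17.4% and 7.94%, was 30.4% and 16.3% at 3 UMIs, 6.40% and 2.03% at 10 UMIs, 30.8% and 15.3% at 2000 UMIs per cell, and 9.57% and 3.69% without Bst2 and Ifi27l2a. The causes of these shifts were not tested. In neutrophils taken whole every setting gave a negative sum. Signs turned in the monocyte sum and median, the conventional DC sum and median, the pDC sum, and the middle, late and equal ranges. Depth limits units with few member UMIs, such as neutrophil cluster 22 (65 in wild-type), cluster 4 and the middle range (722 and 769 in wild-type), mature DCs (727 in SCD) and red pulp macrophages (1816 and 915).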
